A study of Rattus norvegicus with 2 samples.

Results

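Granins and the enzymes that cut prohormones were compared between the nucleus of the solitary tract (NTS) of female and male rats. The set held 9 genes, chosen by name: the granin genes Vgf, Chga, Chgb, Scg2 and Scg3, the convertase chaperone gene Scg5, the convertase genes Pcsk1 and Pcsk2, and the carboxypeptidase gene Cpe. A member's probes were those whose transcript accession belongs to the gene in RefSeq, which gave 11 of the 45598 probes on the array and 48 of its 58717 spots. All 9 members, of 16581 named genes, were well above background on both arrays, as were 13428 genes in all.

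The samples were 1 array of RNA from 5 females and 1 array of RNA from 5 males, both spontaneously hypertensive rats (SHR), an inbred strain that develops high blood pressure, aged 9 weeks. No rats of a normotensive strain were among them, and the labels name no drug or genetic change. The NTS is the dorsal medulla centre that receives baroreceptor and visceral afferents. Equal amounts of RNA, 100 ng per rat, were pooled within a sex before labelling, so each value stands for a pool. The variation between rats is unknown, and the design allows no test. Signals are given as scaled signal, on which the 75th percentile of an array's spots is 100, and differences are log2 values, female minus male.

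Dense-core vesicles of neurons and endocrine cells store peptide hormones together with granins, acidic proteins that aggregate in the trans-Golgi network and help load the vesicle. Within the vesicle, the convertases encoded by Pcsk1 and Pcsk2 cut prohormones after pairs of basic residues, and carboxypeptidase E trims the basic residues that are left. Several granins, Vgf among them, are also precursors of bioactive peptides, and in rat neurons and rat pheochromocytoma cells Vgf is known as a gene induced by neurotrophins and by activity.

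Of the 9 members, Vgf differed most between the arrays and was 1.26-fold lower in the female pool, with a difference of -0.33. The other 8 lay between -0.10 and 0.07, within 1.07-fold. No member was 1.5-fold lower, against 0.797% of all measured genes, and none was 1.5-fold higher, against 1.5%, or 2.29% in either direction. At 1.2-fold, Vgf was the 1 member lower in the female pool, where 4.48% of all genes were, and no member was higher, where 7.31% were. The median over the 9 members was -0.0037, beside 0.016 over all measured genes. Members lower in the female pool numbered 5 and members higher numbered 4, and 44.5% of all genes were lower there.

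Vgf encodes a granin-like precursor whose fragments act on energy balance, sympathetic outflow and pain pathways. Its first probe, A_64_P030739, is printed at 10 places on the array, and 8 of these spots carried no outlier flag on either array. Their lowest, median and highest scaled signals were 923, 981 and 1018 in the female pool, against 1188, 1223 and 1286 in the male pool. All spots in the female pool were below all spots in the male pool. The difference was -0.33 with an SD of 0.046 over the spots, and it ran between -0.38 and -0.24 in single spots. With the flagged spots included, all 10 were lower in the female pool.

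The second Vgf probe, A_44_P1116685, has 1 spot. Its scaled signal was 9.26 in the female pool and 11.6 in the male pool, a difference of -0.33. The gap between the 2 probes was 0.0011, where the median gap over 2491 genes with 2 measured probes was 0.096. The program that read the scans gave this 1 spot an error of 10% on each array, so the small gap does not measure precision. The first probe was far brighter, with a mean of 978 in the female pool and 1229 in the male pool. The gene's signal averaged over both probes, 95.2 in the female pool and 119.5 in the male pool, lay between the 2 probes. Both probes were at least 1.2-fold lower in the female pool, as was so for 0.843% of those genes.

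**Figure D1:**
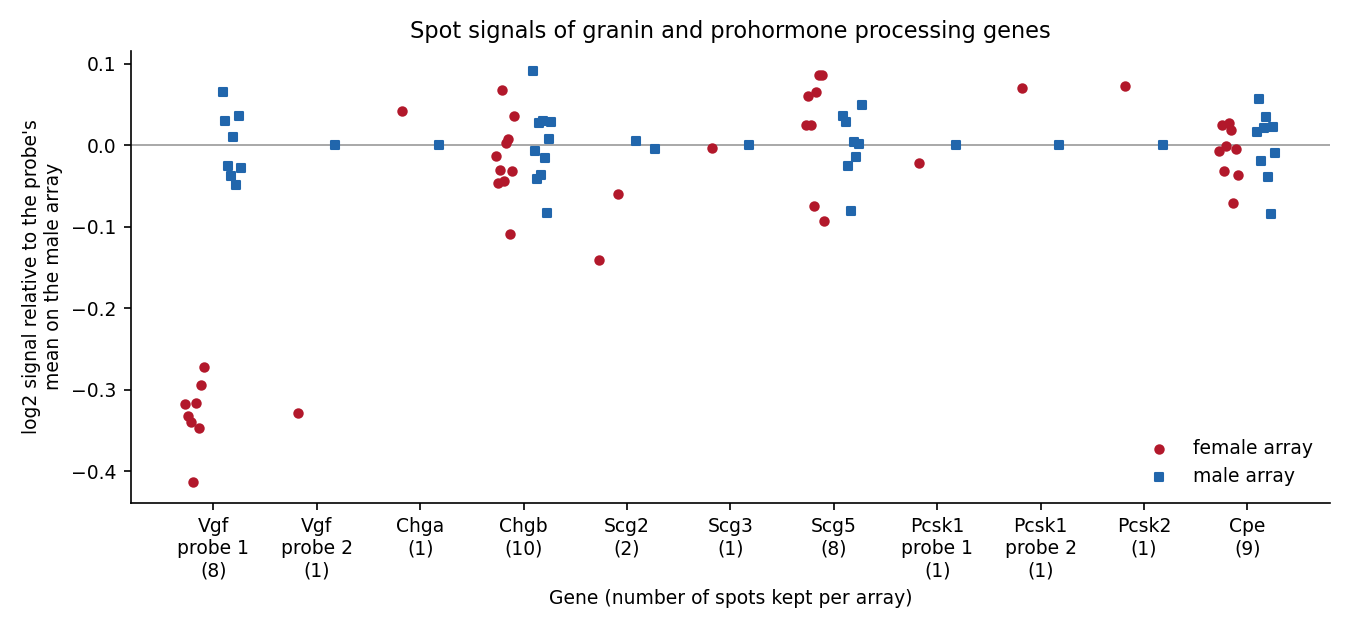
Log2 signal of each kept spot relative to the mean of the same probe on the male array, for the 11 probes of the 9 genes, with female spots as circles left of male spots as squares. All female Vgf spots lie below all male ones in its first probe, whereas the spots of Chgb, Scg5 and Cpe overlap between the arrays.

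The size of the Vgf difference was set against other genes and probes of these arrays. Averaged over its probes, Vgf lay in the brightest 25% of genes, where the SD of the difference over 3357 genes was 0.13. In that part, 24 genes, Vgf included, had a difference as low as that of Vgf or lower, and 1.13% of the genes were at least 1.2-fold lower in the female pool. Over 1326 probes with at least 8 kept spots, the median SD of the difference over spots was 0.041. Of those probes, 7.01% had every female spot below every male spot, and 20, the Vgf probe included, had a difference as low as that of the Vgf probe or lower. The second Vgf probe, taken alone, lay in a dimmer signal range, where the SD of the difference over 4301 probes was 0.23 and 79 probes, or 1.84%, had a difference as low or lower. The repeated spots measure the array surface and scanning, and not rats, pools or labelling. The program that read the scans gave each Vgf spot of the first probe an error of 10% of its signal.

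**Figure D2:**
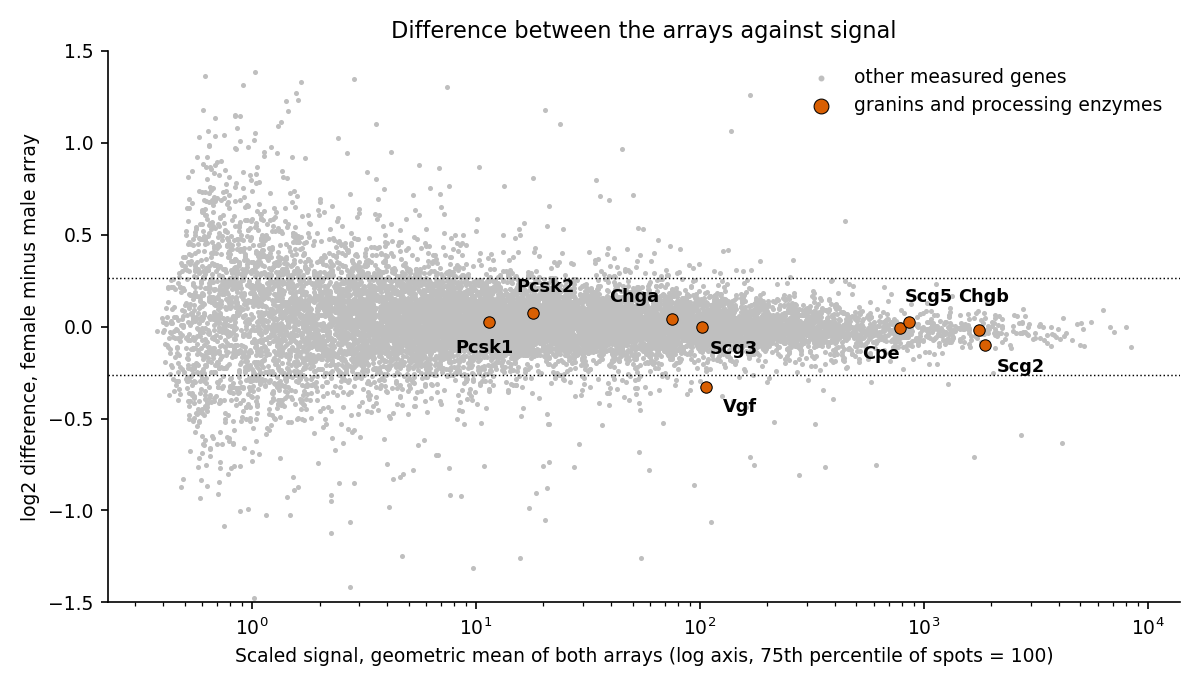
Log2 difference, female minus male array, against the scaled signal (log axis) of 13428 measured genes in grey, with the 9 members in orange and dotted lines at 1.2-fold. Vgf lies below the lower line and the other 8 members lie between the lines; 29 other genes lie beyond the plotted range of 1.5 on the log2 scale.

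Scg2 encodes secretogranin II, the precursor of the peptide secretoneurin. It had the second lowest difference of the set, at -0.10. Its 1 probe has 2 spots, which read 1752 and 1854 in the female pool, against 1926 and 1940 in the male pool. Both female spots were below both male spots, as in 24.0% of measured probes with 2 kept spots, but the difference was smaller than the SD over genes of its signal range, 0.13.

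The promoters of Vgf and Scg2 are shown because both hold the full cyclic AMP response element (CRE), the palindrome TGACGTCA bound by CREB and related factors, and because these members had the lowest differences. Each window runs from 250 bases before the gene's RefSeq start to 50 bases after it, 300 bases in all, read 5′ to 3′ on the gene's strand with the element in capitals. Both are from RefSeq on assembly GRCr8, Vgf at chr12:25276971-25277270 and Scg2 at chr9:88256817-88257116, each on the minus strand.
Vgf: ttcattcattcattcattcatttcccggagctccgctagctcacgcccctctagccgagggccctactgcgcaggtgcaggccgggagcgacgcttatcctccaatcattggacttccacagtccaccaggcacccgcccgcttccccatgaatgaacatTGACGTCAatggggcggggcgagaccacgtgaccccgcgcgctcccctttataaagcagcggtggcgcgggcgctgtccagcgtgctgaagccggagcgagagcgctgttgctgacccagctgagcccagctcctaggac
Scg2: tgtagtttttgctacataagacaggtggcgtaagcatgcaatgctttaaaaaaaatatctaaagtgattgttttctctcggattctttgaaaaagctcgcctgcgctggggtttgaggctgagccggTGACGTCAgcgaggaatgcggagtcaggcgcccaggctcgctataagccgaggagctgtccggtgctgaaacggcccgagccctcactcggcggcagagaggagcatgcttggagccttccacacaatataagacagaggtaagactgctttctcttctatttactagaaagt

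The element begins 90 bases before the start in Vgf and 123 bases before it in Scg2. Of the 33469 windows in the table, 1.83% hold TGACGTCA, which reads the same on both strands, and 7 members had a window. Chga and Pcsk1 were not matched. Chgb, Scg3, Scg5, Pcsk2 and Cpe had windows without it. The shorter element TGACG, searched on both strands and contained in each full element, was found in Vgf, Scg2, Scg3, Scg5, Pcsk2 and Cpe and in 21.2% of all windows. The TATA box letters TATAAA were found in Vgf alone of the 7, beginning 41 and 43 bases before the start in overlapping copies on opposite strands, and in 14.2% of all windows. CCAAT was found in Vgf, Pcsk2 and Scg3 and in 37.5% of windows, GGGCGG in Vgf, Chgb, Scg5, Pcsk2 and Cpe and in 33.1%, and TGANTCA, the AP-1 motif, in no member and in 7.33%.

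Genes with the full element were centred near 0. Among measured genes with a window, the median difference was 0.0020 over 325 genes with TGACGTCA and 0.016 over 10628 genes without it. At 1.2-fold, 7 genes with the element, Vgf among them, were lower in the female pool and 7 were higher. These shares were 2.15% in each direction, against 4.50% lower and 7.12% higher among genes without it. Genes with and without the element were not matched for signal. The SD of the difference over genes was 0.36 in the dimmest signal range and 0.13 in the brightest. Whether the shares differ at like signal was not tested.

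Chga and Chgb encode chromogranins A and B, which are among the main soluble proteins of secretory granules. Chga, with 1 spot, read 76.2 in the female pool and 74.0 in the male pool, a difference of 0.042. Chgb had 10 spots, whose lowest, median and highest signals were 1637, 1739 and 1850 in the female pool, against 1667, 1766 and 1881 in the male pool. These ranges overlapped over most of their length, and the difference was -0.016 with an SD of 0.041 over the spots. Scg3 encodes secretogranin III, which tethers granin aggregates to cholesterol-rich membrane and binds chromogranin A. Its 1 spot read 101.5 in the female pool and 101.8 in the male pool, a difference of -0.0037.

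Scg5 encodes a chaperone that holds the precursor of the convertase made from Pcsk2 inactive until it reaches the vesicle. Of its 10 spots, 8 were kept, and they read 800 at the lowest, 879 at the median and 905 at the highest in the female pool, against 806, 855 and 883 in the male pool. The female range contained the male range, and the difference was 0.022 with an SD of 0.076 over the spots.

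Pcsk2, with 1 spot, read 18.5 in the female pool and 17.6 in the male pool, a difference of 0.073. This was the highest difference of the set and lay within the SD of 0.16 over genes of its signal range. Pcsk1 had 2 probes with 1 spot each. Its first probe, A_43_P11816, read 6.49 in the female pool and 6.59 in the male pool, and its second, A_64_P041219, read 20.5 in the female pool and 19.5 in the male pool. The probes went in opposite directions, at -0.022 and 0.070, and the gene's difference was 0.024. Cpe, which encodes the carboxypeptidase that acts after both convertases, had 9 kept spots of 10. They read 747, 782 and 800 at the lowest, median and highest in the female pool, against 740, 793 and 816 in the male pool, so the female range lay inside the male range. The difference was -0.0089, with an SD of 0.029 over the spots.

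Most other genes of prohormone maturation also lay within 1.2-fold between the arrays. Of 7 other proprotein convertases, 1 was at least 1.2-fold lower in the female pool and none was higher, with a median difference of 0.045. Furin, the ubiquitous convertase of the trans-Golgi network, read 58.6 in the female pool and 52.1 in the male pool, a difference of 0.17. Pcsk6, a convertase of the constitutive secretory pathway, had a difference of 0.13.

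Of 12 other peptide-maturing enzymes, 1 was at least 1.2-fold lower in the female pool and none was higher, with a median of -0.0083. That gene was Cpm, a membrane carboxypeptidase gene chosen after its values were seen, at -0.28. The cathepsin genes Ctsb and Ctsl had differences of -0.013 and -0.090. The amidating enzyme gene Pam, also chosen after its values were seen, had a difference of -0.0053.

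Of 4 other genes listed as granins or granin-like, none passed 1.2-fold. The list was mixed, with Gnas, Nucb1, Nucb2 and Pcsk1n, and its median of -0.13 stands for these 4 genes only. Nucb1 and Nucb2 were at -0.10 and -0.15. Gnas, whose locus also encodes a neuroendocrine secretory protein, had a difference of -0.16 over 4 probes, which were matched to the gene and not to one of its transcripts. Pcsk1n, which encodes the granin-like convertase inhibitor proSAAS, read 413 in the female pool and 409 in the male pool. Its difference was 0.013, the 1 value of the list above 0.

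The vesicle itself was represented by 28 measured genes of membrane and release and 12 of acidification. No gene of either list passed 1.2-fold in either direction, and the medians were -0.0057 and -0.0099. Ptprn2, a transmembrane protein gene of dense-core vesicles, had a difference of -0.014, and Cyb561, which carries electrons into the vesicle for amidation, one of 0.066. The proton pump genes Atp6ap1 and Atp6v1b2 had differences of 0.014 and -0.022.

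The peptide precursors that these enzymes act on ranged between -1.31 and 0.41. Of 37 measured precursors, 5 were past 1.2-fold with the female pool lower and 3 with the female pool higher, with a median of 0.022. Over all measured genes these shares were 4.48% and 7.31%. Calca, the calcitonin gene-related peptide gene, read 6.13 in the female pool and 15.2 in the male pool. Uts2, the urotensin gene, read 3.05 in the female pool and 7.22 in the male pool, and Ucn, the urocortin gene, read 1.63 in the female pool and 3.14 in the male pool. These were the 3 precursors past 1.5-fold, and all 3 were lower in the female pool, where 0.797% of all measured genes were 1.5-fold lower. All 3 were dim. Ucn lay in the dimmest signal range, where the SD of the difference over genes was 0.36. Calca and Uts2 lay in the next one, where it was 0.20.

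Regulators of the pathway and activity-induced genes were listed because Vgf is an activity-induced gene. Of 11 measured activity-induced genes, 10 were lower in the female pool, 2 of them by at least 1.2-fold, and the median was -0.17. Over all measured genes, 44.5% were lower there, and 4.48% by at least 1.2-fold. Fos, the immediate early gene, read 4.74 in the female pool and 7.27 in the male pool, a difference of -0.62. The other gene past 1.2-fold was Nr4a1, chosen after its values were seen, at 13.5 in the female pool and 16.8 in the male pool. The list's median stayed below 0, between -0.22 and -0.085, under all 11 other processing settings. Those that take a gene's median or brightest probe or keep flagged spots left this median unchanged. All its measured genes but Btg2 and Ier2 lay in the 2 dimmer signal ranges. The SD of the difference over genes there was 0.36 and 0.20, larger than the size of the list's median. That SD describes single genes, so it does not measure the spread of a median over 11 genes. Btg2 and Ier2, the brightest of the list and chosen after their values were seen, had differences of -0.12 and 0.0073. Over 9 measured transcription factors of the secretory pathway the median was 0.059, with Creb3l2 at 0.013 and Xbp1 at 0.066. None was lower by 1.2-fold and 1 was higher. That gene was Neurod1, chosen after its values were seen, at 0.38.

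**Figure D3:**
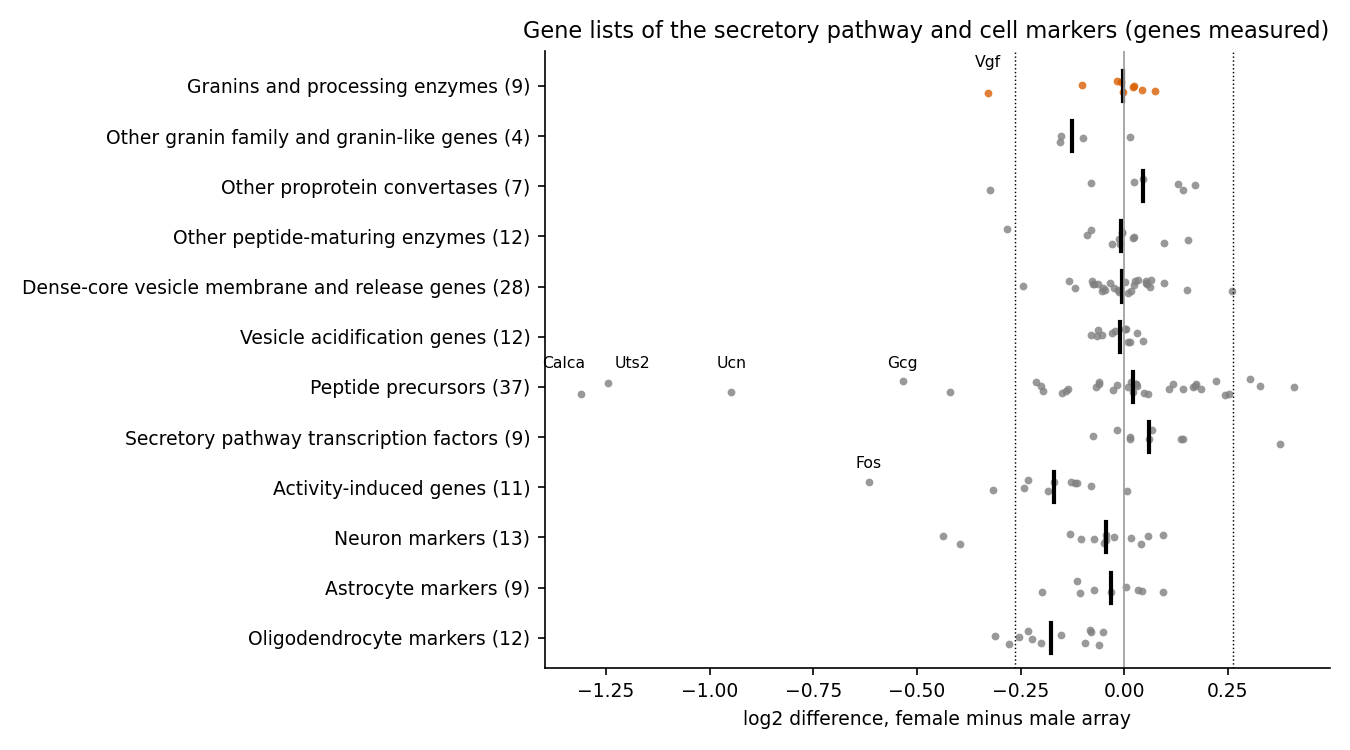
Log2 differences, female minus male array, of the measured genes of 12 lists (1 point per gene, number of genes in brackets), with a bar at each list's median and dotted lines at 1.2-fold. Vgf stands apart from the other members, and the activity-induced and oligodendrocyte lists lie mostly left of 0.

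Markers of other cell types differed between the arrays, and their part in the Vgf difference was not tested. All 14 measured choroid plexus markers, of 15 listed, were past 1.5-fold with the female pool higher, with a median of 2.33 and a summed scaled signal of 10021 in the female pool and 884 in the male pool. The median was 1.099 with normexp correction, 1.33 without background correction and 1.62 in the brighter 50% of probes. The list was led by the channel gene Kcnj13 at 4.56, Sostdc1 at 4.23, the thyroxine carrier gene Ttr at 3.92 and the prolactin receptor gene Prlr at 2.96. All 7 measured blood cell genes were lower in the female pool, with a median of -0.73 and a summed signal of 3616 in the female pool and 5636 in the male pool. They included the globin gene Hbb at -0.75, Alas2 at -0.73, Slc4a1 at -0.93 and Ahsp at -0.92.

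All 12 oligodendrocyte markers were lower in the female pool, with a median of -0.18 and a summed signal of 2058 in the female pool and 2417 in the male pool. The myelin gene Mbp had a difference of -0.082. The median of 13 neuron markers was -0.044, or 0.042 after centring on spike-in controls, with a summed signal of 6984 in the female pool and 7349 in the male pool. Uchl1 and Gap43 both had a difference of -0.044. The 2 neuron markers past 1.2-fold were the neurofilament genes Nefl at -0.44 and Nefm at -0.396, chosen after their values were seen. The difference of Vgf minus the neuron marker median was -0.28. Fewer neurons in the sample and less RNA per neuron cannot be told apart in such tissue.

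Astrocyte markers had a median of -0.032 over 9 genes, with Aldoc at -0.032 and S100b at 0.044. Of the pituitary hormone genes, which would mark endocrine tissue rich in granins, 4 of 7 were measured, with a median of -0.019. Pomc was at -0.15 and Lhb at 0.026, and Gh1 read 0.49 in the female pool and 0.52 in the male pool. Prl, Cga and Tshb failed the filter, which asks for a probe well above background on both arrays. Their signals on each single array are not given here. The labelled region was checked with dorsal medulla markers. Of 13 listed, 9 had a named probe and all 9 were measured. Their median was 0.053, with 7 higher and 2 lower in the female pool. The 2 lower were the noradrenaline synthesis genes. Th read 532 in the female pool and 602 in the male pool, and Dbh read 381 in the female pool and 399 in the male pool. Slc6a2, chosen after its values were seen, was the 1 marker past 1.2-fold, at 0.29. It read 1.55 in the female pool and 1.27 in the male pool, and lay with Phox2a and Glp1r in the dimmest signal range. No named probe was matched to Tlx3, Hoxa4 or Hoxa5.

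Under 11 other processing settings, Vgf stayed lower in the female pool, between -0.36 and -0.24. It was past 1.2-fold in 10 of them, but not all of these are separate checks. Keeping dim probes, dropping the dimmer ones or taking the median over its 2 probes left Vgf at its main value of -0.33. The deposited table holds the same intensities up to 1 constant per array, and it also gave -0.33. Centring on spike-in controls, which adds a step of 0.085 to the median gene, gave -0.24, or 1.18-fold. Scg2 was also below 0 under all 11, between -0.13 and -0.015, and Chga and Pcsk2 were above 0 under all 11. These members have 1 probe each, so the settings that choose or drop probes returned their main values. Chgb, Scg3, Scg5, Pcsk1 and Cpe changed sign between settings while staying between -0.080 and 0.11.

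**Figure D4:**
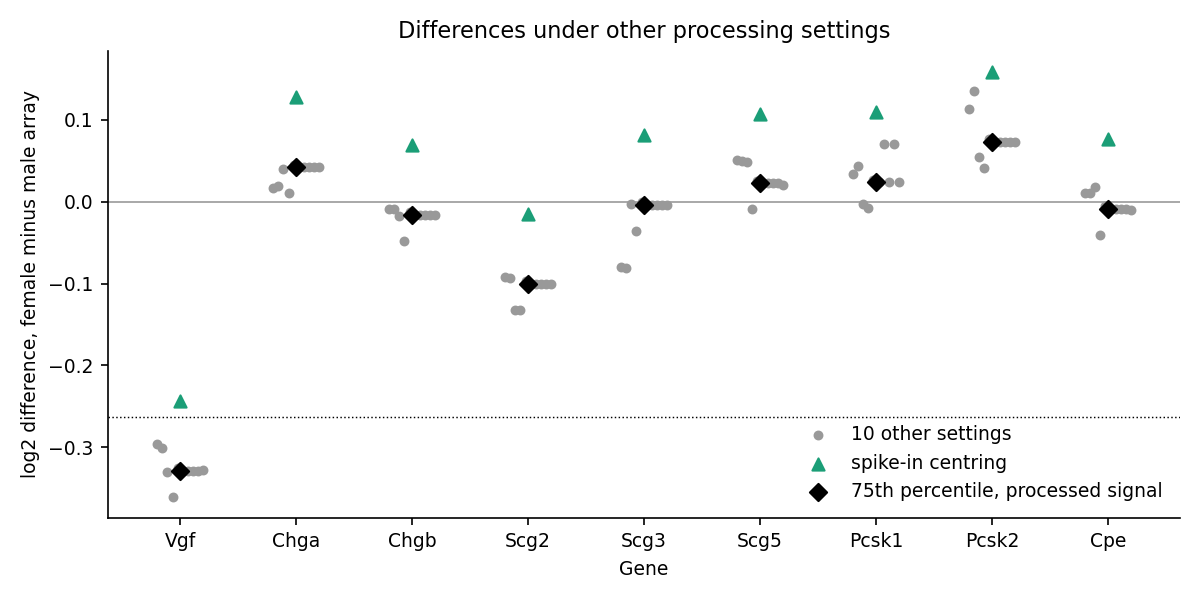
Log2 difference of each member, female minus male array, with the processed signal scaled to the 75th percentile (diamonds), with spike-in centring (triangles) and under 10 other settings (grey points); the dotted line marks 1.2-fold lower in the female pool. Vgf lies between -0.36 and -0.24 and is above the dotted line with spike-in centring only.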

How the data were processed

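Per the labels' protocols, 1 operator dissected the NTS, and 100 ng of a pool was amplified and read with Cy3 on an Agilent array of 1 colour. The deposited intensity of each spot is a linear, background-corrected processed signal from Agilent Feature Extraction, version 11.5.1.1 per the file headers and 9.1 per the submitters' processing notes. The authors' deposited value table holds the same intensities divided by 1 constant per array, 23.4 for the female and 22.8 for the male array, so its scale is linear, without centring or direction, with column medians of 19.6 for the female and 19.4 for the male array.

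Of the spots outside the controls, 82.3% were well above background for the female pool and 80.1% for the male pool, and none was saturated. Both arrays lie on 1 slide and share 1 scan time, per the file headers. The number of arrays limits the precision. The log2 processed signal, less the 75th percentile of its array, was averaged over spots without an outlier flag on either array, then over probes well above background on both. Genes were named by matching unversioned accessions to RefSeq genes of GRCr8, which named 21109 probes. All 9 members were named, and of each list the genes past 1.5-fold (at most 4), or else the 2 brightest. Some genes that were picked are not reported here. Genes were counted past 1.2-fold and 1.5-fold, and signal ranges are 4 groups of genes, equal in number, by mean signal.

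Alternatives were normexp correction (offset 50) and no correction, both on the median spot signal because the planned mean signal is not used here, quantile, median and spike-in scaling, the deposited table, dim probes kept or the dimmer ones dropped, a gene's median or brightest probe, and flagged spots kept. Members and lists were chosen with earlier results of these data known. The computation was tested on simulated spots. Python 3.11.15, numpy 2.4.6, pandas 2.3.3, R 4.3.3 and limma 3.58.1 were used.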

Additional observations from a re-analysis of the deposited data

How the results depend on the processing

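No paired analysis was possible because there was a single pool of each sex, without replicate arrays. Over 11 settings, all 99 values of the 9 members moved by less than the SD of the difference over genes of the same signal range. This count does not test stability. The step of spike-in centring, 0.085, is below the smallest such SD, 0.13. For members with 1 probe, settings that choose or drop probes return the same value. Centring on spike-in controls moved the median over the members to 0.082 and the count of members 1.2-fold lower in the female pool to 0, a step that this setting adds to every gene. The counts of all genes 1.5-fold apart, 201 higher and 107 lower in the female pool, were 37 and 33 with normexp correction, 50 and 38 without background correction, 1134 and 513 with dim probes kept, and 20 and 27 in the brighter 50% of probes, where fewer genes were counted. Scaling alone moved this split to 137 higher and 157 lower with quantile normalization and to 282 higher and 80 lower with spike-in centring. No member was past 1.5-fold under any of these settings. Single-spot members (Chga, Scg3 and Pcsk2, and both probes of Pcsk1) have no repeated spots to set an error. Whether any difference here exceeds the variation between rats is unknown with 1 pool per sex.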
